A study of Mus musculus with 5 samples.

Results

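The loci of Zfp608 and Zfp609, 2 paralogous zinc finger genes, were examined in a chromatin immunoprecipitation and sequencing (ChIP-Seq) data set of NEUROD2 from the embryonic mouse cortex. The members are NEUROD2 peaks whose midpoint lay closer to the transcription start site (TSS) of Zfp608 or Zfp609 than to the TSS of any other protein-coding gene, with overlapping peaks merged into regions. Of 53952 merged regions assigned in this way across the genome, 99 were members, 91 of them at Zfp608 and 8 at Zfp609. Zfp608 was chosen for the number of its regions, so that this number is given as a description without a test.

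Chromatin came from the dissected cerebral cortex of untreated BALB/c embryos at E14.5, and each precipitation used tissue pooled from several litters. Each of 3 antibodies against NEUROD2 gave 1 library, with a mouse antibody for ab1 and rabbit antibodies for the others (ab2, ab3), and 2 GFP libraries, 1 per host species, served as controls for peak calling, so that ab2 and ab3 shared a control. The 3 lists are therefore 3 measurements of a single condition, with no biological replicate and no contrast between groups. There were 51841 ab1 peaks, 35310 ab2 peaks and 7470 ab3 peaks, each scored by its p-value against the matching GFP library (read as −log10 multiplied by 10, the form MACS writes). A score grows with the depth of its library and was not scaled between libraries, and the read depth behind a peak cannot be read from the lists.

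NEUROD2 is a basic helix-loop-helix factor of differentiating cortical projection neurons that binds E-boxes, short sequences of the form CANNTG. ZFP609 is a nuclear protein that associates with the cohesin loader NIPBL and with the Integrator complex, which processes and terminates transcripts at many promoters, and it is required for the migration of cortical neurons. ZFP608 is its paralog and is known for repressing the recombinase genes of developing thymocytes, while less is known of its part in the cortex. Binding at an E-box near a gene or in its introns can mark an enhancer, and a peak list alone does not show which gene such a site acts on.

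To show the sequences that the antibodies share at the smaller locus, the extended E-boxes in the central 200 bp of the Zfp609 regions with at least 2 antibodies are given here on the plus strand of GRCm38 (mm10), with the CANNTG core in capitals. The extended E-box is the core CAGATG, the core CATCTG, the core CAGCTG or the core CATATG with a G or T directly after it, read on either strand. The first pair lies in the strongest region of the gene, 34.1 kb downstream of the TSS, at chr9:65793392-65793421 and chr9:65793411-65793440. The second pair lies 45.9 kb downstream, at chr9:65781571-65781600 and chr9:65781633-65781662. The last site lies 3.67 kb downstream, at chr9:65823880-65823909.
Zfp609 +34.1 kb, site a: accgaaaacaccCAGATGttgctaaaagct
Zfp609 +34.1 kb, site b: tgctaaaagctaCAGATGtgccagaggcaa
Zfp609 +45.9 kb, site a: tcaatccaagcaCATATGtataatcaaaac
Zfp609 +45.9 kb, site b: cagacattctacCAGATGtttaggagtctg
Zfp609 +3.67 kb: tcttcagctgcaCAGCTGccgccaccgcca
The sites of the strongest region both carry the core CAGATG, their printed stretches overlap, and they are centred 77 and 58 bp to the lower-coordinate side of the region's midpoint. The site 3.67 kb downstream carries the palindromic core CAGCTG and is centred 1 bp from the midpoint.

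Zfp608 (ENSMUSG00000052713.9) lies on chromosome 18 from 54888723 to 54992555 on the minus strand, in a long interval without other protein-coding TSSs. The TSS of Csnk1g3, which encodes a casein kinase 1, was 1130 kb away on the 3′ side, and that of Gramd3 was 1408 kb away on the 5′ side. The bases closer to the Zfp608 TSS than to any other protein-coding TSS, called its territory here, spanned 1.27 Mb. Zfp609 (ENSMUSG00000040524.9) lies on chromosome 9 from 65692391 to 65827564, also on the minus strand, in a dense neighbourhood. Oaz2, which encodes an antizyme of polyamine synthesis, begins 159.6 kb from its TSS and Pclaf, which encodes a clamp-associated factor of replicating cells, begins 62.7 kb away, so that the territory of Zfp609 spanned 0.111 Mb.

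Of the 91 regions at Zfp608, 67 held peaks of at least 2 antibodies, which is 73.6%, beside 59.7% of all merged regions. As the 91 regions chose Zfp608, no interval of this share is given and nothing further is read from it. At Zfp609, 6 of 8 regions held peaks of at least 2 antibodies (75%, 95% Wilson interval 40.9 to 92.9). Intervals of shares cover counting error only. Of the other 24 regions at Zfp608, 18 were called with ab1 alone at scores between 51.2 and 117.7, and 6 with ab2 alone at scores between 58.6 and 132.3. Of all 21769 single-antibody regions, 18921 were called with ab1 alone and 2738 with ab2 alone. No region was called with ab3 alone at either gene. The regions with ab1 alone thus had lower ab1 scores than most of the shared ones, whose ab1 scores at Zfp608 began at 64.8 with a lower quartile of 163.6.

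The antibodies differed in how much they called. Within the Zfp608 territory ab1 had 88 peaks, ab2 had 77 and ab3 had 7, a mean of 57.3 ± 43.9 (SD over the 3 antibodies). Within that of Zfp609 they had 7, 7 and 1. In the list of each antibody taken alone, Zfp608 held the most regions of the 21938 protein-coding genes with ab1 and with ab2, and it ranked 66 with ab3. Zfp609 ranked 1779, 1130 and 1558. Since ab3 called few peaks, the number of regions with at least 2 antibodies rested on ab1 and ab2, and at Zfp608 it was 7 without ab1, 7 without ab2 and 67 without ab3. At Zfp609 it was 1 without ab1, 1 without ab2 and 6 without ab3. The rank of Zfp608 by this number was 1 with all antibodies and without ab3, 66 without ab1 and 67 without ab2.

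**Figure D1:**
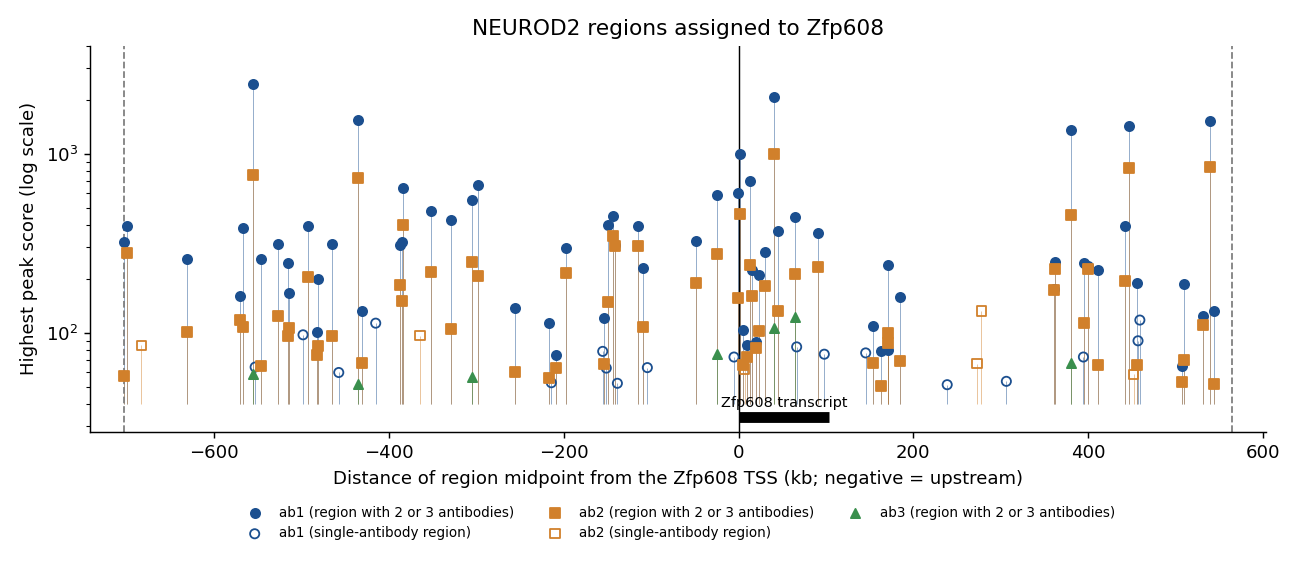
Highest peak score of each antibody (log axis) in the 91 regions of Zfp608 against the distance of the region midpoint from the TSS in kb, negative upstream. Filled symbols are regions with 2 or 3 antibodies, open symbols are regions of a single antibody, dashed lines are the ends of the territory and the black bar is the transcript; the highest ab1 scores stand 556 kb upstream and 40.1 kb downstream of the TSS.

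The Zfp608 region with the highest ab1 score and the highest summed score lay 556 kb upstream of the TSS at chr18:55546588-55550361, and scored 2457 with ab1, 756 with ab2 and 58.9 with ab3. It was also the widest, with 3774 bp merged from 5 overlapping peaks, against a median width at Zfp608 of 839 bp. Its scores are the highest of each antibody among these peaks. The next lay 40.1 kb downstream of the TSS, in intron 2 of the gene at chr18:54951643-54953330, and scored 2061 with ab1, 1000.1 with ab2 and 106.0 with ab3. These 2 regions thus had the highest ab1 scores of the locus, one of them far outside the gene and the other within it. With ab2 the intron 2 region scored highest and that 556 kb upstream scored lower than 3 others, and with ab3 the highest score, 122.1, was at a region 64.6 kb downstream, also in intron 2.

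On the 3′ side, the region 539 kb downstream of the TSS (chr18:54452087-54454138) scored 1528 with ab1 and 843 with ab2, and that 447 kb downstream (chr18:54544932-54546198) scored 1426 and 827. Neither had a peak with ab3. Another, 380 kb downstream (chr18:54611382-54612966), scored 1361, 453 and 67.8 with the 3 antibodies. On the 5′ side, the region 435 kb upstream (chr18:55427166-55428098) scored 1538, 728 and 51.6. Among all regions with at least 2 antibodies, these 6 took places between 1232 and 3326 of 32164 by ab1 score, so that many regions of other genes scored higher.

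The regions at the Zfp608 promoter had places 7 and 15 among the 67 by summed score. The region that covers the TSS, with its midpoint 0.355 kb upstream, scored 604 with ab1 and 156 with ab2, and a second region 1.84 kb downstream, in intron 1, scored 999 and 463. Neither had a peak with ab3. The only Zfp608 region with its midpoint in an exon lay in coding exon 2, 4.77 kb downstream, with 103 for ab1 and 66.4 for ab2. At the Zfp609 TSS, a peak centred 0.138 kb downstream was called with ab2 alone at a score of 64.3, and none with ab1 or ab3. The central window of that peak had a GC content of 82.0% and held no extended E-box.

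**Figure D2:**
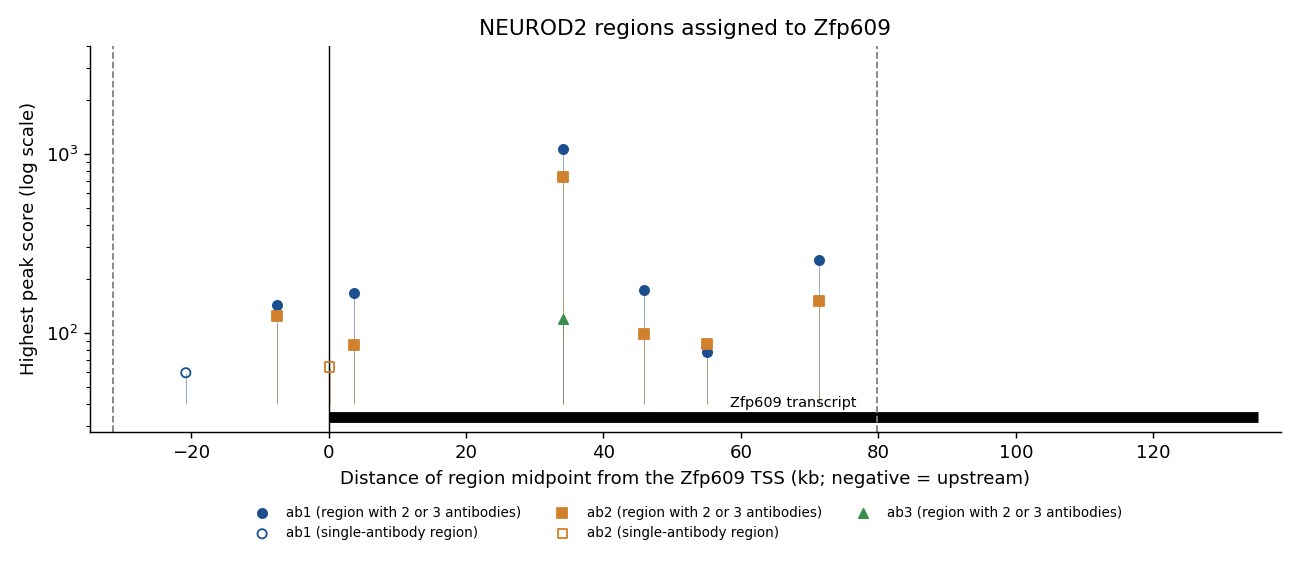
Highest peak score of each antibody (log axis) in the 8 regions of Zfp609 against the distance of the region midpoint from the TSS in kb, with symbols, dashed lines and bar as for Zfp608. The region 34.1 kb downstream stands above the others, and the transcript extends beyond the end of the territory.

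At Zfp609, 4 of the 6 regions with at least 2 antibodies lay in intron 2, 1 in intron 1 and 1 upstream of the TSS. The intron 2 region 34.1 kb downstream (chr9:65792925-65794042), which carries the pair of CAGATG sites printed above, scored 1066 with ab1, 743 with ab2 and 119.9 with ab3. The other 5 scored between 78.5 and 254 with ab1 and between 85.3 and 151 with ab2 and had no ab3 peak, so that no other region of the gene came near it.

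The second region in the order of scores, 71.4 kb downstream, scored 254 with ab1 and 151 with ab2. The region 45.9 kb downstream, with the pair of unlike E-box cores, scored 174 and 98.9, and that 3.67 kb downstream, with the CAGCTG site, scored 166 and 85.3. The region 7.5 kb upstream scored 143 and 123, and its midpoint lay inside the transcript of Trip4, which encodes a transcriptional coactivator. The region 55.1 kb downstream scored 78.5 with ab1 and 86.8 with ab2, the only one of the 6 at which ab2 was higher. The territory covered 59.0% of the Zfp609 transcript. In its remaining 3′ part lay 2 more regions, which went to Oaz2, and the one of them with 2 antibodies scored 96.3 with ab1 and 166 with ab2.

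The territories end where the next TSS becomes closer, and the regions nearest to these ends show what the rule decides. At the 5′ end of the Zfp608 territory the last region inside lay 561 bp from the border (321 with ab1 and 57.4 with ab2). The first outside it, 741 kb from the Zfp608 TSS, went to Gramd3 with scores of 1454, 892 and 66.9. At the 3′ end the last region inside scored 132 and 52.0, and the first outside, 613 kb from the TSS, went to Csnk1g3 with 792 and 313. At Zfp609 the region 71.4 kb downstream was the last inside, and that in the transcript with 96.3 and 166 was the first outside.

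Protein-coding TSSs are not the only ones in the Zfp608 interval, and this choice decides the count. When TSSs of all annotated gene types competed, 2 of the 67 regions with at least 2 antibodies kept Zfp608 as the closest gene, and the other 65 went to 17 other genes, none of them protein-coding. Its rank by these regions then went from 1 to 1195. Of the 67 midpoints, 12 lay inside a long intergenic noncoding transcript and 4 inside the antisense gene Gm4221, which overlaps the Zfp608 promoter. Zfp609 kept 5 of its 6 regions under the same rule. The count fell more than the density, which was 41.95 per Mb at Zfp608, over 2 regions, and 59.4 per Mb at Zfp609, over 5. With every annotated transcript start of protein-coding genes, Zfp608 held 67 regions and took rank 2, and Zfp609 held 7.

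With protein-coding TSSs, the 3 genes that followed Zfp608 in number of regions with at least 2 antibodies were Galnt17 with 56, Auts2 with 52 and Rbfox1 with 46. Galnt17 encodes a glycosyltransferase, Auts2 a chromatin and cytoskeletal regulator, and Rbfox1 a neuronal splicing factor. With ab3 the order was different, since 22 regions of Galnt17, 13 of Auts2 and 15 of Rbfox1 held an ab3 peak, against 7 at Zfp608. Zfp609 was 1 of 305 genes with exactly 6 regions, and 7.13% of protein-coding genes had 6 or more. Each antibody contributed 1 library, so no error can be given for these numbers, and differences of a few regions between neighbours in the order are not resolved.

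Zfp608 is also in a list of targets expressed in the subventricular and intermediate zones, through which young neurons migrate. As that list was chosen by the study on these libraries, its counts are no independent evidence. The 18 genes held a median of 16 regions with at least 2 antibodies, and all 18 held at least 6. Sox11, a factor of neuronal differentiation, held 41, Epha3 28, Plxna2 27 and Robo2 24, the last 3 being receptors of axon guidance. The fewest were at Vat1 with 7 and Shb with 8.

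The number of regions was then set against the length of the territory. Zfp608 held 52.8 regions with at least 2 antibodies per Mb and Zfp609 held 54.0 per Mb, with 67 and 6 regions behind these values. Over the genome there were 11.8 regions per Mb. As Zfp608 was chosen for its number of regions, its density is a description too, given without an interval. The 211 genes with a territory at least as long as that of Zfp608 held a median of 9 regions. Among all protein-coding genes, most of which have shorter territories, Zfp608 stood at 1857 and Zfp609 at 1785 by density. Among the 5534 genes with a territory at least as long as that of Zfp609, Zfp608 stood at 191 and Zfp609 at 173. In the same list Galnt17 had 51.9 per Mb, Sox11 39.4, Kif21b 125.1 and Vat1 161.1. Kif21b and Vat1 reached these densities with 10 and 7 regions, in territories of 0.0800 and 0.0434 Mb.

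**Figure D3:**
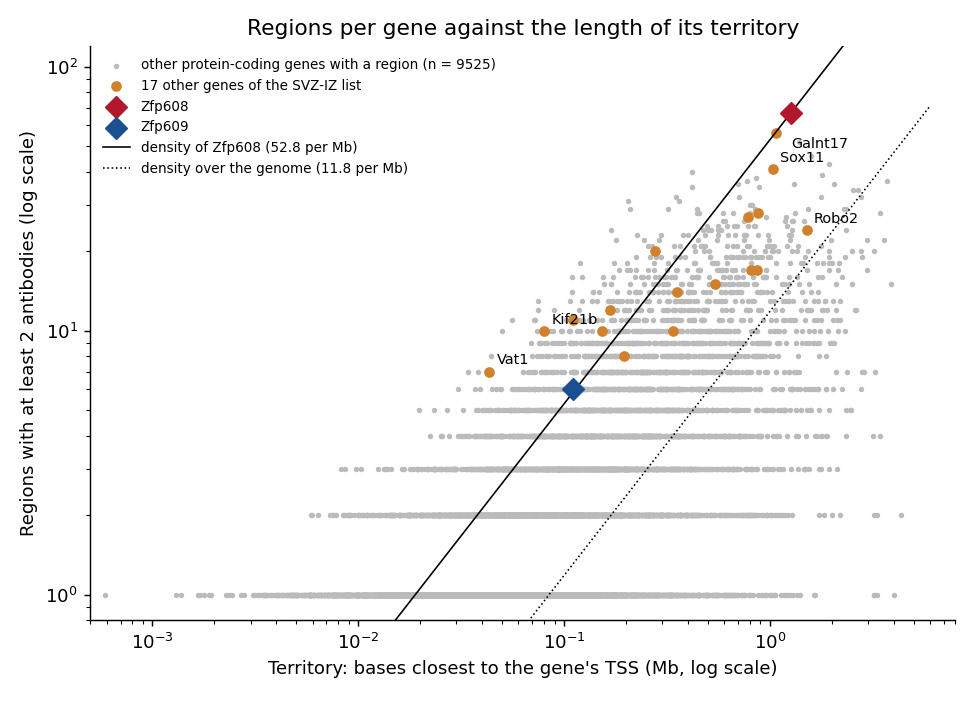
Number of regions with at least 2 antibodies against the length of the territory for each protein-coding gene with at least 1 region (both axes logarithmic). The solid line is drawn at the density of Zfp608 itself, 52.8 regions per Mb, so that Zfp608 lies on it, and Zfp609 lies close to it (diamonds). The dotted line below them is the genome at 11.8 per Mb. Orange points are the other genes of the subventricular and intermediate zone list.

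Within the territory of Zfp608 the regions were not spread evenly. The transcript of 103.8 kb held 12 regions with at least 2 antibodies, or 116 per Mb, against 36 in the 704 kb upstream (51.1 per Mb) and 19 in the 461 kb beyond its 3′ end (41.2 per Mb). Intron 2 held 10 of the 12. It makes up most of the transcript, since regions in it lay from 6.83 to 90.6 kb downstream of the TSS. The median ab1 score was 322 in the transcript, 318 upstream and 189 beyond the 3′ end. The median gap between neighbouring regions was 8.31 kb, and 24 of the 66 gaps were under 5 kb. The longest gap, of 175 kb, lay on the 3′ side between 185 and 361 kb downstream of the TSS, where only single-antibody regions were called.

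Most Zfp608 regions were far from the promoter. The median distance from the TSS was 352 kb, and 52 of the 67 (77.6%) lay over 100 kb away, against 35.3% of all regions with at least 2 antibodies. Over 500 kb away lay 15, against 5.57% of all. Within 10 kb lay 4 at Zfp608 and 2 at Zfp609, against 22.5% of all. A long territory allows such distances, and at Zfp609, whose territory ends 79.8 kb downstream, the median distance was 40 kb and no region could lie over 100 kb away. Both genes had regions inside their own transcript, 12 of 67 at Zfp608 and 5 of 6 at Zfp609, against 40.6% of all.

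Regions with at least 2 antibodies score higher than the others, with a median ab1 score at Zfp608 of 73.1 in regions of ab1 alone, so these values are set beside all regions kept by the same filter. At Zfp608 the ab1 score ran from 64.8 to 2457 with a median of 283.9 (95% interval from order statistics 228.8 to 325.3), and the median over all regions with at least 2 antibodies was 277.8. With ab2 the median was 123.9 (101.7 to 185.8) against 140.3 over all. At Zfp609 the medians over 6 regions were 169.8 with ab1 and 111.2 with ab2, and without ab2 the ab1 median was that of the 1 region left, 1066. Without ab2 the ab1 median at Zfp608 was 1361, over 7 regions. The upper quartile for ab1 was 413.5 at Zfp608 and 629.8 over the genome. An ab1 score of at least 1000 was reached by 6 of 67 regions at Zfp608 and 1 of 6 at Zfp609, against 15.2% of all. The middle of the ab1 distribution at Zfp608 was thus close to that of the genome, and whether the share of high scores differed was not tested.

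In 66 of the 67 Zfp608 regions the score with ab1 exceeded that with ab2, with a median ratio of 2.06. Over all regions with both peaks this held in 28613 of 32123, or 89.1%, and the median ratio was 1.84. The ratio ran from 0.921 to 5.60 at Zfp608. At Zfp609 it was above 1 in 5 of 6 regions, with a median of 1.56. As scores were not scaled between libraries, the ratio describes the pair of lists and not the antibodies' affinity.

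**Figure D4:**
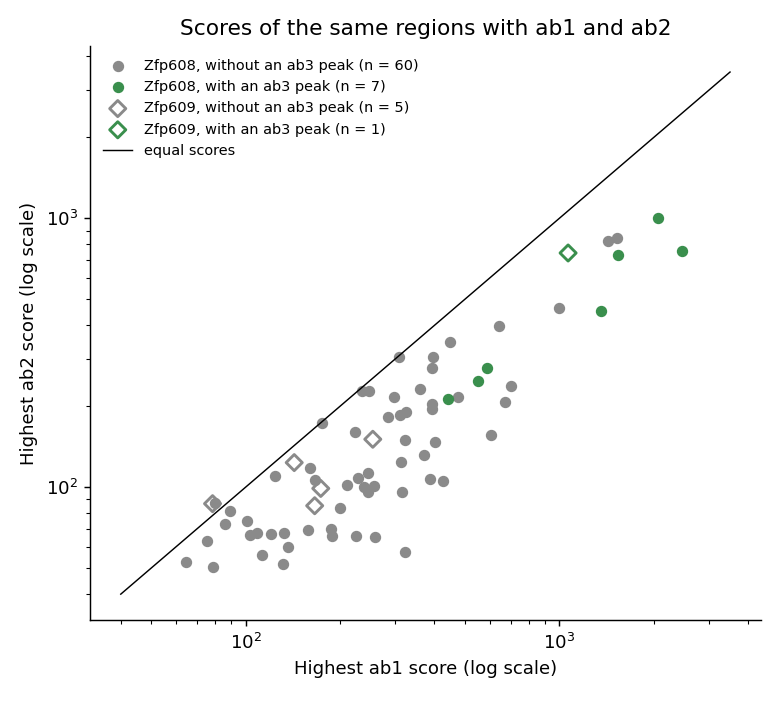
Highest ab2 score against highest ab1 score (both axes logarithmic) for the 67 regions of Zfp608 (circles) and the 6 of Zfp609 (diamonds), green where ab3 had a peak. Nearly every point lies below the line of equal scores, and 2 Zfp608 regions with ab1 scores of 1426 and 1528 lack an ab3 peak.

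Peaks of all 3 antibodies were found in 7 of the 67 Zfp608 regions, which is 10.4%, given without an interval. They were found in 1 of 6 at Zfp609 (16.7%, 3.00 to 56.4), against 22.2% of all regions with at least 2 antibodies. The ab3 scores of the 7 lay between 51.6 and 122.1, and their median of 67.8 compares with 90.5 over all regions with an ab3 peak. Among the Zfp608 regions with an ab1 score of at least 1000, ab3 was present in 4 of 6, against 84.1% of such regions in the genome. With ab1 scores from 200 to 1000 it was present in 3 of 40, against 18.6%, and below 200 in 0 of 21, against 1.77%. The Zfp608 regions with all 3 antibodies had a median ab1 score of 1361, and those with 2 had 246, compared with 1170 and 209 over the genome. The number of regions that chose Zfp608 is the denominator of its ab3 share, so nothing further is read from this share.

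The extended E-box was present in the central 200 bp of 41 of the 67 Zfp608 regions, which is 61.2% (95% Wilson interval 49.2 to 72.0), and of 3 of 6 Zfp609 regions (50%, 18.8 to 81.2), against 59.8% of all regions with at least 2 antibodies. In equal windows that begin 1000 bp beyond the ends of the region, it was present in 9 (13.4%) on the side of lower coordinates and in 8 (11.9%) on the other at Zfp608, against 22.3% and 22.4% over all. The intervals of the Zfp608 flanks were 7.23 to 23.6% and 6.18 to 21.8%. These intervals treat neighbouring regions of a single locus as independent. Whether the shares of the centres or flanks differ from the general rates was not tested. Median GC content of the centres was 46.0% at Zfp608 and 46.8% at Zfp609, against 51.0% over all.

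**Figure D5:**
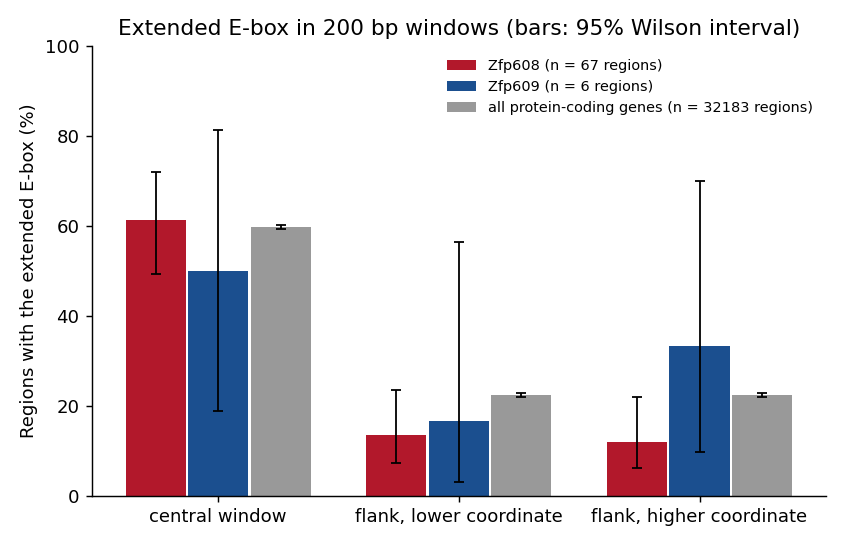
Share of regions with at least 2 antibodies that carry the extended E-box in the central 200 bp and in windows of 200 bp placed 1000 bp outside either end, with 95% Wilson intervals. The centres stand at 61.2% for Zfp608, 50% for Zfp609 and 59.8% for all protein-coding genes, and the Zfp608 flanks stand at 13.4 and 11.9%.

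By core, CAGATG, which includes its reverse complement CATCTG, was present in 33 of the 67 Zfp608 centres, against 43.2% of all centres. CAGCTG was present in 12, against 28.1%, and CATATG in 9, against 11.7%. At Zfp609 these cores were present in 2, 1 and 1 of the 6 centres. Among the remaining forms at Zfp608, CAAATG was present in 13 centres (14.6% of all centres), CACCTG in 9 (18%), CAACTG in 8 (11.4%), CACATG in 7 (16.9%), CAAGTG in 5 (11.6%), CAATTG in 3 (2.35%) and CACGTG in 2 (3.8%). Counted together with its reverse complement, CAGATG was thus the most frequent core at Zfp608, as over the genome. A palindromic core such as CAGCTG has no separate reverse complement, so the order of the cores does not compare like with like. Cores were searched on both strands, and a centre can hold several. At Zfp608 10 centres held 2 or more extended E-boxes, and at Zfp609 2 did, against 22.2% of all.

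At Zfp608 the regions with the motif were not the stronger ones by their median. The 41 regions with the extended E-box had a median ab1 score of 247 and the 26 without it had 312, while over the genome the medians were 273 and 283. Of the 6 regions with an ab1 score of at least 1000, 3 had the motif in their centre, against 2859 of 4903 such regions over the genome. The regions 40.1 kb and 380 kb downstream, which all 3 antibodies called, were among those without it. A motif outside the central 200 bp is not counted here. Among the 24 single-antibody regions of Zfp608, 18 carried the motif, against 56.8% of all single-antibody regions, and at Zfp609 1 of 2 did so.

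Next to these loci, Csnk1g3 held 10 regions with at least 2 antibodies and Gramd3 held 12, at 16.0 and 15.3 per Mb. Beyond Csnk1g3, Cep120 held 3 and Prdm6 held 5, and beyond Gramd3, Phax held 1 and Aldh7a1 none. Around Zfp609, Oaz2 and Csnk1g1 held 2 each, while Rbpms2, Pif1, Pclaf and Trip4 held none. Around Zfp609 the densities were 20.2 per Mb at Oaz2 and 0 at Pclaf. As the number of regions chose Zfp608, nothing is read from its density beside those of its neighbours.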

How the data were processed

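The authors mapped single-end reads to mm10 with Bowtie, kept uniquely mapped reads without duplicates, and ran MACS on each antibody separately with GFP as control. The deposited score of each peak was read as 10 times the −log10 p-value, which is the form MACS writes and fits the lowest score in the lists of 50.0, since the sources used here do not define it. Only these peak lists were analysed here. They hold no read counts, so weak binding below the cutoff is not seen, and a score depends on library depth.

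Peaks on chromosomes 1 to 19, X and Y were assigned by their midpoint to the closest protein-coding TSS (GENCODE M21, longest-span transcript), and peaks of a gene that overlapped by at least 1 bp were merged. Territories end halfway between neighbouring TSSs. Sequence was read from GRCm38, whose reference strain is not BALB/c, so motifs that differ in this strain are missed. No test across conditions was possible with 1 library per antibody. The tools were scipy 1.17.1, pandas 2.3.3, numpy 2.4.6 and matplotlib 3.10.9 under Python 3.11.15, and assignment, merging and motif search were tested on simulated data. The members, gene lists and tests were chosen with earlier results of these data known. Named were both genes, the 3 protein-coding genes on each side on the chromosome, those 3 places above and below in the order by number (ties in alphabetical order, not all printed), the listed gene sets and, of each member, the 6 regions with the highest summed scores, those closest to and farthest from the TSS, those beside the borders and those in exons. Other values were chosen after they were seen. Alternatives were only peaks scoring 100 or more, merging only where 50% of the shorter peak is shared, other TSS sets, the position of the highest peak, the geometric mean of the scores, other motif windows and definitions, and each antibody left out.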

Additional observations from a re-analysis of the deposited data

How the results depend on the processing

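No paired analysis was possible because no result comes from a test and the GFP libraries have no peak list. The limit is that 1 library per antibody gives no replicate, and the lists hold no reads below the cutoff. With a peak score of at least 100, Zfp608 held 43 regions with at least 2 antibodies (33.9 per Mb), 2 with all 3 antibodies and a median ab1 score of 392.5, and Zfp609 held 5 regions in all, 3 with at least 2 antibodies (27.0 per Mb), at rank 1641. With TSSs of all gene types, Zfp608 held 3 regions in all, 2 with at least 2 antibodies and 1 with all 3, at rank 1195 and with a median ab1 score of 595.3, and Zfp609 went to rank 268. The share of Zfp608 regions with the motif was 38.8% in windows of 100 bp, 73.1% in windows of 400 bp and 85.1% for any CANNTG, which all Zfp609 regions carried (100%). With each antibody left out in turn, the regions with at least 2 antibodies ran from 7 to 67 at Zfp608 (5.52 to 52.8 per Mb, rank 1 to 67, median ab1 score 283.9 to 1361) and from 1 to 6 at Zfp609 (9.00 to 54.0 per Mb, median ab1 score 169.8 to 1066, motif share 50 to 100%). Without ab1 or ab2 a region needs an ab3 peak, and ab3 had 7 peaks at Zfp608 and 1 at Zfp609. The overlap rule, the position of the highest peak and all transcript starts of protein-coding genes left the numbers within 1.5 times, except that Zfp608 took rank 2 with all transcript starts, as it did with a peak score of at least 100.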

Other observations

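Genes for the known partners of ZFP609 were looked up in the same lists. Of 7 genes for cohesin and its loader, 4 held a region with at least 2 antibodies, and of 14 genes for Integrator subunits 5 did, against 43.5% of all protein-coding genes. Stag2, a cohesin subunit, held 2, and Smc3, Rad21 and Stag1 held 1 each. The Stag1 region scored 1405 with ab1 and 638 with ab2. Nipbl, which encodes the cohesin loader that ZFP609 associates with, held none with at least 2 antibodies. Among the Integrator genes, Ints10 held 3 regions, whose highest scores were 1946 (ab1), 1278 (ab2) and 325 (ab3), and Ints3, Ints4, Ints8 and Ints14 held 1 each. The median over both lists was 0 regions.

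Casein kinase 1 gamma paralogs lie near both members. Csnk1g3, next to Zfp608, held 10 regions with at least 2 antibodies. Csnk1g1, beyond Pclaf and Trip4 from Zfp609, held 2 regions with ab1 scores of up to 112, and Csnk1g2, on another chromosome, held none. Of 24 single-antibody regions at Zfp608, 4 lay in the long gap between 185 and 361 kb downstream, with scores from 51.2 to 132.3.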
